A study of Homo sapiens with 24 samples.

Results

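The genes for the proteins of the mitochondrial ribosome were followed through 24 polyadenylated RNA libraries from 2 human acute myeloid leukaemia (AML) cell lines. Members were the rows of the expression tables whose symbol begins with MRPL or MRPS followed by a number, and 80 of 23595 rows matched. Of these, 76 are protein genes, 49 of the large subunit, 26 of the small subunit and 1 of neither. The other 4 rows are an antisense RNA and 3 pseudogene symbols. Subunits were assigned by structure, so MRPS30 and MRPS18A, whose proteins sit in the large subunit, count there. MRPS36, now known as a subunit of the oxoglutarate dehydrogenase complex, counts in neither.

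IMS-M2 and U937 are established human cell lines, U937 having a monocytic character. Each line grew in medium that held folic acid (+FA) or lacked it (-FA). In each medium the cells received OTX or the solvent DMSO, which gave 8 groups of 3 libraries. The labels do not spell out OTX and give no dose or duration. Nothing in them ties the 3 libraries of 1 group to separate cultures, so p-values measure only the spread between these libraries. Levels are in FPKM (fragments scaled to the mapped fragments of the library and to transcript length), a scale on which genes can be compared with each other. Depth is unknown, and an FPKM value is relative to the rest of its library. In bulk RNA, fewer cells of a kind and less RNA per cell cannot be told apart. Media and lines were deposited in separate tables, and their levels are therefore set side by side without a test.

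Mitochondrial ribosomes translate the few messenger RNAs of the mitochondrial genome, all of which encode membrane subunits of the respiratory chain and ATP synthase. Their RNA is made in the mitochondrion, whereas every protein is encoded in the nucleus, made by cytosolic ribosomes and imported. The large subunit joins amino acids and feeds the new chain through an exit tunnel, the small subunit reads the messenger, and many proteins of both have no counterpart in bacteria. AML cells have been described as reliant on mitochondrial translation. No row for the 13 mitochondrially encoded messengers was found in the tables, so the products of these ribosomes could not be followed.

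All 76 genes passed the expression filter, which asked for a group mean of 1 FPKM or more somewhere in the line. By the mean over all 24 libraries the highest was MRPS24 at 136 FPKM, a small subunit protein near the messenger entry. It was followed by MRPL51 at 125, MRPL37 at 116, MRPS34 at 101 and MRPS21 at 97.3 FPKM. The lowest were MRPL19 at 7.29, MRPS31 at 10.2, MRPL22 at 11.9, MRPL35 at 15.8 and MRPL1 at 17.2 FPKM. RNA levels of genes whose proteins enter the same particle thus spanned more than an order of magnitude in these libraries. The 3 pseudogene symbols ranged from 0.248 to 3.38 FPKM, and the antisense row MRPL23-AS1 was at most 0.270 FPKM.

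Blood cell markers (PTPRC, LAPTM5, CORO1A, SPI1, CD33) were all at or above a mean of 1 FPKM in each group. The 4 monocytic markers (LYZ, CD14, CSF1R, CYBB) summed to between 227 and 1804 FPKM in U937 and to between 1.42 and 18.2 FPKM in IMS-M2. Of these, 2 or 3 reached a mean of 1 FPKM in the U937 groups and 1 or 2 in the IMS-M2 groups, so the sums rest on few genes. In IMS-M2 +FA DMSO, LYZ alone had a mean of 14.2 FPKM. Lymphoid, epithelial and fibroblast lists summed to at most 4.23 FPKM. Erythroid markers summed to at most 0.474 FPKM apart from a library of IMS-M2 -FA OTX at 10.4 FPKM. Total FPKM per library ranged from 522659 to 644841. Each library was scored along the main axis of within-group variation, computed on 8353 genes that are not members. High scores, of 0.25 or more, belonged to 4 libraries, IMS-M2 +FA DMSO replicate 3, U937 +FA DMSO replicate 1, U937 +FA OTX replicate 3 and U937 -FA DMSO column 2. This axis, called the library score below, held 29.9% of the within-group variance of those genes and 65.5% of that of the 76 members, so comparisons are given with and without the 4 high-score libraries. Another 3 lay past the same distance on the negative side, IMS-M2 +FA DMSO replicate 1 (-0.365), U937 +FA OTX replicate 1 (-0.292) and U937 -FA DMSO column 1 (-0.372), and key counts are also given with all 7 left out, which leaves 1 library in each of 3 groups, assumed to vary like the others. The threshold was set after the scores were seen. Where the score served as a covariate, the values of each library were projected on the same axis without centring by group.

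The summed level of the 76 genes was lower with OTX than with DMSO in both lines and both media. In IMS-M2 +FA it was 4099 ± 137 FPKM in DMSO and 3258 ± 40.9 FPKM in OTX (mean ± SD, n = 3 each). In IMS-M2 -FA the sums were 4357 ± 309 and 3103 ± 77.7 FPKM. In U937 they were 4630.5 ± 7.76 and 3000.2 ± 168 FPKM with folic acid, and 4327 ± 210 and 3013 ± 88.6 FPKM without it. No OTX library reached the lowest DMSO library of its table. As a share of all FPKM the group means were between 0.704% and 0.786% in DMSO and between 0.506% and 0.583% in OTX.

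**Figure D1:**
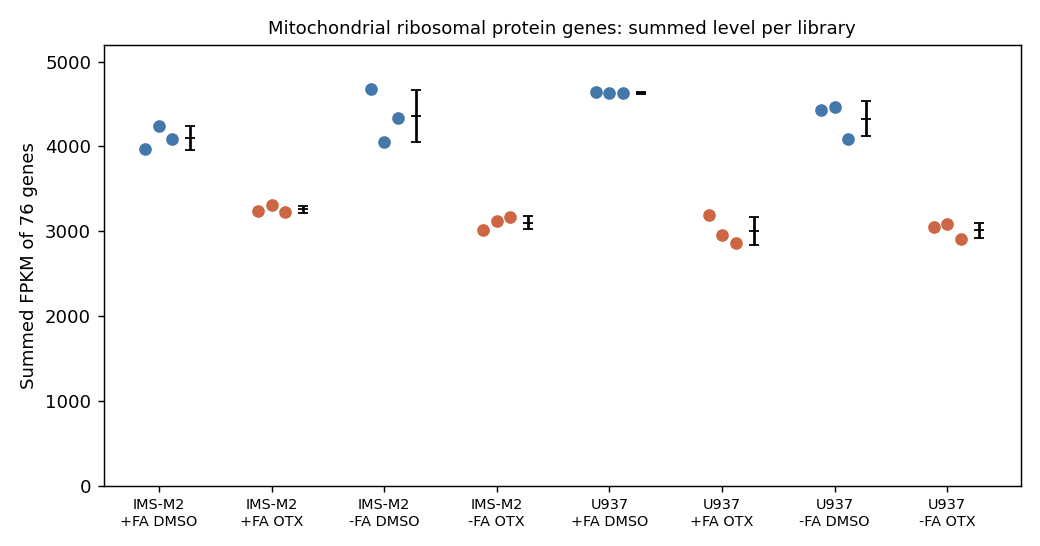
Summed FPKM of the 76 protein genes (vertical axis) in each of the 24 libraries, by group (horizontal axis; blue DMSO, orange OTX), with mean ± SD beside each group of 3. Every OTX library lies below every DMSO library of the same line and medium.

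Gene by gene, most members fell with OTX. Calls were made with limma on log2(FPKM + 1) at a Benjamini-Hochberg adjusted p below 0.05 over all genes tested. In IMS-M2 +FA, 44 of 76 members fell and 8 rose, where 33.4% of all tested genes fell and 29.8% rose. In IMS-M2 -FA, 54 fell and 1 rose, against 30% and 27.5% of all genes. In U937 +FA, 57 fell and 1 rose, against 27% and 29.1%. In U937 -FA, 48 fell and 2 rose, against 31.7% and 28%. The median log2 change of the members was -0.33, -0.47, -0.59 and -0.40 in that order, and that of all tested genes was -0.03, -0.01, 0.02 and -0.02. All 3 OTX libraries lay below all 3 DMSO libraries for 40, 57, 58 and 50 members, against 33.8%, 35%, 30.4% and 33.7% of all genes, and above them for 9, 3, 1 and 2, against 30.4%, 33.1%, 32% and 30.3%. Without the high-score libraries, 40 fell and 6 rose in IMS-M2 +FA, 58 fell and 4 rose in U937 +FA, and 57 fell and 2 rose in U937 -FA. Of all genes, 30.2%, 27.2% and 33.8% then fell and 27.9%, 30.9% and 28.7% rose. Without all 7 libraries past the threshold, 43, 57 and 53 fell, against 31%, 25% and 31.6% of all genes. Members have short transcripts, with a median of 1253 nucleotides against 2553 for other genes. After the trend of the log values on transcript length was removed from each library, the medians were -0.24, -0.33, -0.50 and -0.32. Then 37, 49, 51 and 43 members were lower, against 33.8%, 30.2%, 28% and 30.7% of all genes. Median transcript GC content was 49.5% in members and 49.9% in other genes. Spearman's rho of the OTX change with GC was -0.37, -0.29, -0.11 and -0.30 over members. Over all genes it was -0.26, -0.23, -0.07 and -0.17. No trend on GC was removed, and its part in the changes was not tested. The monocytic markers moved with OTX as well: both of those tested in IMS-M2 and all 3 tested in U937 fell in each medium, with medians of -1.91, -1.38, -1.06 and -1.68. Their summed level went from between 14.1 and 18.2 to between 1.42 and 1.89 FPKM in IMS-M2 +FA and from between 483 and 688 to between 227 and 295 FPKM in U937 +FA. Without folic acid the sums were 12.5 to 13.6 in DMSO and 1.80 to 2.004 FPKM in OTX in IMS-M2, and 1308 to 1804 and 408 to 483 FPKM in U937. Of the 5 blood cell markers, 4, 4, 2 and 2 fell and 1, 1, 2 and 1 rose. Their part in the changes of the members was not tested.

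**Figure D2:**
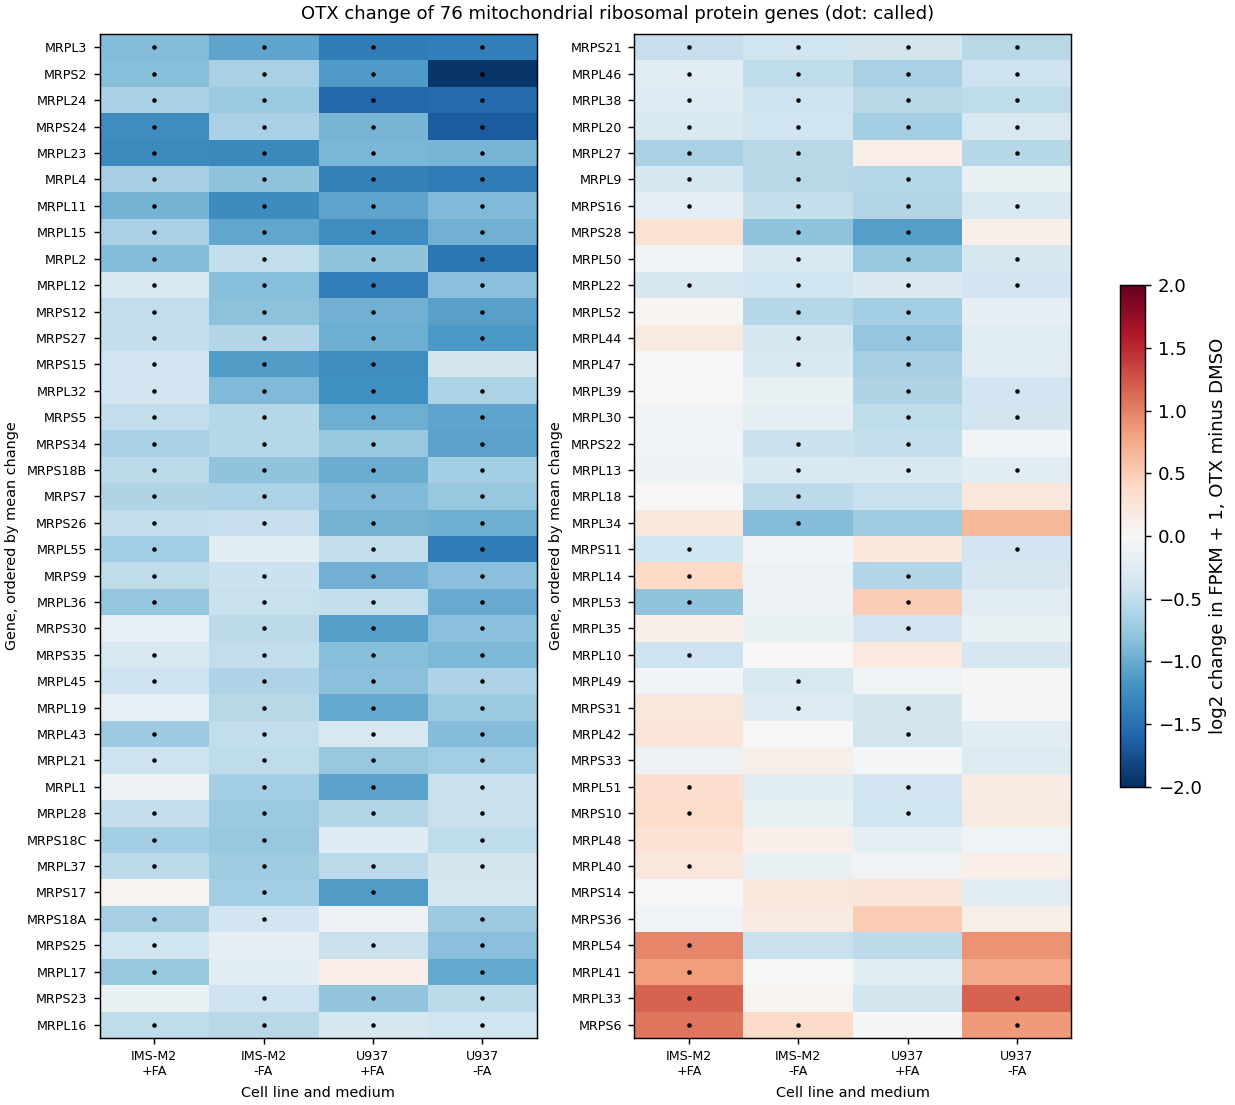
Log2 change in FPKM + 1, OTX minus DMSO, of the 76 protein genes (rows, ordered by their mean change) in the 4 line and medium combinations (columns); blue is lower with OTX, red is higher, and a black dot marks a call. Blue fills most of the map, with 33 genes called lower in all 4 columns and the red cells gathered among MRPS6, MRPL33, MRPL41 and MRPL54.

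Of the 76 members, 33 (43.4%) fell in all 4 comparisons, where 11.8% of the 10220 genes tested in both lines did so. A further 13 fell in 3, 11 in 2 and 10 in 1, and 9 fell in none. No member rose in all 4, where 11.4% of genes did. In IMS-M2 the media shared 38 members that fell, 86.4% of those with folic acid and 70.4% of those without. In U937 they shared 43, which is 75.4% and 89.6% of the respective lists. The share of all genes that fell in both media of a line is not given here. These overlaps are therefore not read as particular to the members. In single comparisons 33.4% and 30% of all genes fell in IMS-M2, and 27% and 31.7% in U937.

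The largest mean fall belonged to MRPL3, a large subunit protein that reaches towards the catalytic centre. Its locus in the files lies at hg19 chromosome 3, 131181044 to 131221860, and also holds SNORA58. In IMS-M2 +FA it measured 77.3, 94.2 and 85.3 FPKM in DMSO and 43.7, 52.1 and 44.1 FPKM in OTX. In U937 +FA it measured 126, 109.9 and 105 FPKM in DMSO and 40.7, 44.7 and 41.9 FPKM in OTX. The groups did not overlap in either table, and its loading on the library score was 0.10. Its log2 change was -0.86 ± 0.10 (SE, limma adjusted p = 8.41e-06) in IMS-M2 +FA, -1.06 ± 0.10 in IMS-M2 -FA (1.58e-06) and -1.40 ± 0.09 in U937 +FA (3.24e-07).

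MRPS2, a small subunit protein on the solvent side, lies at hg19 chromosome 9, 138392476 to 138396519. In U937 -FA it stood at 87.2, 78.5 and 120.1 FPKM in DMSO and at 25.9, 21.5 and 23.2 FPKM in OTX, a log2 change of -1.95 ± 0.14 (adjusted p = 7.64e-07). This was the largest fall of any member in any of the 4 comparisons. In IMS-M2 +FA the same gene measured 79.1, 92.6 and 117 FPKM in DMSO against 55.5, 45.6 and 55.5 FPKM in OTX (-0.86 ± 0.14, adjusted p = 0.00018). Its highest DMSO values came from IMS-M2 +FA replicate 3 and U937 -FA column 2, which are among the high-score libraries.

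Genes for proteins around the exit of the tunnel fell in most comparisons. Of 6 such members, 5 (83.3%) fell in each of the 4 comparisons, against 33.4%, 30%, 27% and 31.7% of all genes. Their medians were -0.53, -0.51, -0.75 and -0.78. MRPL24, at hg19 chromosome 1, 156707093 to 156710923, measured 121, 98.0 and 109 FPKM in U937 +FA DMSO and 42.1, 34.9 and 32.2 FPKM in OTX. Those groups did not overlap. Its log2 change was -1.56 ± 0.13 (adjusted p = 2.07e-06). MRPL23 went from 112 ± 5.27 to 45.7 ± 0.735 FPKM in IMS-M2 +FA (SD, n = 3 each), a log2 change of -1.27 ± 0.09 (adjusted p = 7.77e-08), the largest fall there. MRPL45, which anchors the ribosome to the inner membrane, fell in all 4 comparisons, by between 0.41 and 0.84 on the log2 scale. MRPL4, which lines the tunnel, fell from 156 ± 10.7 to 60.1 ± 5.02 FPKM in U937 +FA (-1.36 ± 0.10, adjusted p = 1.04e-06).

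Among members of the stalk, where translation factors land, calls went in both directions. MRPL11 at its base fell in all 4 comparisons, and in IMS-M2 -FA it measured 41.9, 34.7 and 37.6 FPKM in DMSO and 15.5, 15.5 and 15.03 FPKM in OTX (-1.25 ± 0.07, adjusted p = 2.73e-08). MRPL12, the flexible stalk protein that recruits the factors, fell in all 4 as well. In IMS-M2 -FA it measured 157, 132 and 132 FPKM in DMSO and 77.7, 76.5 and 77.5 FPKM in OTX (-0.85, adjusted p = 3.2e-05). In IMS-M2 +FA its fall was smaller, -0.32 (adjusted p = 0.024), and the call was lost when DMSO replicate 1 (0.0759) or OTX replicate 3 (0.0795) was left out, or all 7 libraries past the score threshold (0.0512). MRPL54, a stalk protein with no bacterial counterpart, rose in IMS-M2 +FA (0.98 ± 0.21, adjusted p = 0.00144). Its DMSO libraries there measured 43.7, 23.1 and 19.4 FPKM and its OTX libraries 54.0, 53.4 and 55.5 FPKM, so the groups did not overlap but the DMSO libraries differed among themselves by more than the OTX libraries did. Over the 5 stalk members, 4, 2, 2 and 2 fell (80%, 40%, 40% and 40%), against 33.4%, 30%, 27% and 31.7% of all genes.

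Other members with large called falls, and MRPS12, lie elsewhere in the 2 subunits. MRPL2, beside the peptidyl transferase centre, changed by -0.87 ± 0.13 in IMS-M2 +FA (adjusted p = 7.34e-05) and by -1.45 ± 0.14 in U937 -FA (4.92e-06). MRPS12, at the decoding site, fell in all 4 comparisons, from 92.2 ± 6.07 to 43.2 ± 3.86 FPKM in U937 -FA and from 70.5 ± 3.54 to 49.6 ± 3.97 FPKM in IMS-M2 +FA. Its locus is shared with SARS2. MRPS24 fell from 189 ± 41.0 to 77.8 ± 4.17 FPKM in IMS-M2 +FA (-1.24 ± 0.15, adjusted p = 1.46e-05) and by -1.66 ± 0.19 in U937 -FA (1.95e-05). Its locus also holds URGCP and URGCP-MRPS24, and how fragments were divided among these symbols is not known. MRPS15 fell by -1.12 ± 0.12 in IMS-M2 -FA (4.29e-06) and -1.25 ± 0.20 in U937 +FA (0.000267), and MRPL15 by -1.04 ± 0.11 and -1.25 ± 0.09 in the same comparisons. MRPL32 fell by -0.88 ± 0.13 in IMS-M2 -FA, and MRPL55 by -1.39 ± 0.14 in U937 -FA (8.33e-06).

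The smallest falls that passed the test were those of MRPS31 (-0.26 ± 0.10), MRPL50 (-0.30 ± 0.08), MRPL13 (-0.31 ± 0.10), MRPL47 (-0.31 ± 0.12) and MRPL49 (-0.32 ± 0.09) in IMS-M2 -FA. In U937 +FA they were MRPL22 (-0.29 ± 0.10), MRPL13 (-0.31 ± 0.06), MRPL43 (-0.31 ± 0.10), MRPL16 (-0.35 ± 0.07) and MRPS21 (-0.36 ± 0.10). In U937 -FA they were MRPL13 (-0.20 ± 0.06), MRPS16 (-0.30 ± 0.08), MRPL20 (-0.32 ± 0.10) and MRPL50 (-0.35 ± 0.11, the ranges of its groups overlapping). In the central protuberance, which contacts transfer RNA, 2, 3, 2 and 2 of 5 members fell (40%, 60%, 40% and 40%). Of all genes, 33.4%, 30%, 27% and 31.7% fell. Its member MRPL40 rose in IMS-M2 +FA (0.22, adjusted p = 0.044).

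Proteins with a bacterial homologue had the lower medians: -0.41, -0.55, -0.67 and -0.53 over 48 members, against -0.11, -0.41, -0.54 and -0.35 over 27 specific to mitochondria. Counts that fell were 33, 37, 37 and 34 of 48 (68.8%, 77.1%, 77.1% and 70.8%). For those specific to mitochondria they were 11, 17, 20 and 14 of 27 (40.7%, 63.0%, 74.1% and 51.9%). Of all genes, 33.4%, 30%, 27% and 31.7% fell. The difference between these sets of members was not tested. The subunits were counted in the same way, beside the same shares of all genes. In the large subunit 27, 34, 36 and 31 of 49 fell (55.1%, 69.4%, 73.5% and 63.3%), with medians of -0.31, -0.45, -0.56 and -0.38. In the small subunit 17, 20, 21 and 17 of 26 fell (65.4%, 76.9%, 80.8% and 65.4%), with medians of -0.39, -0.49, -0.81 and -0.53. Of the members lower in all 4 comparisons, 20 of 49 were large (40.8%) and 13 of 26 small (50%). Of genes tested in both lines, 11.8% were lower in all 4.

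**Figure D3:**
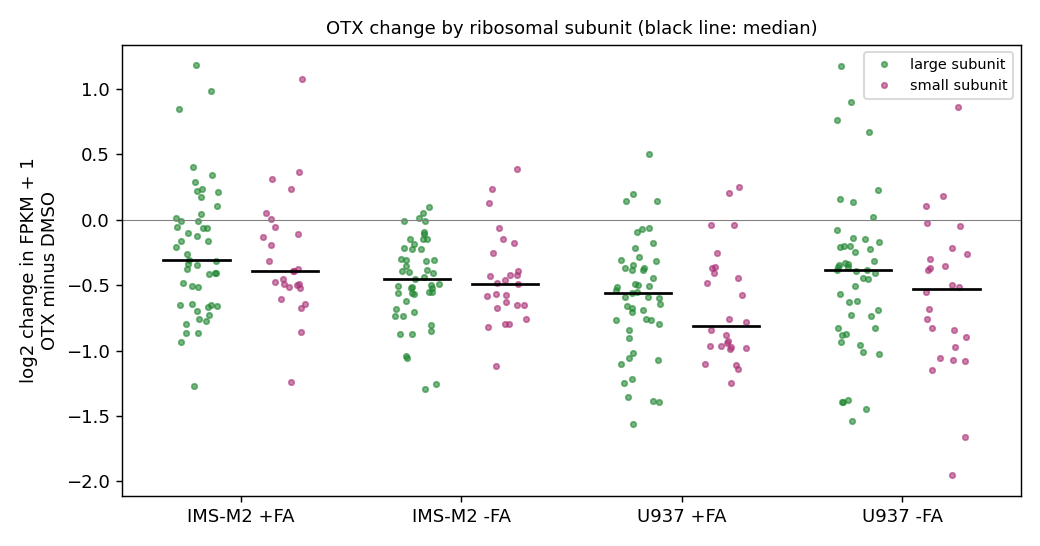
Log2 change, OTX minus DMSO (vertical axis), of each large subunit gene (green, 49) and small subunit gene (purple, 26) in the 4 line and medium combinations, with the median as a black line. The small subunit medians lie below the large subunit medians in all 4, by 0.04 to 0.25, inside a wide spread of single genes.

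Per library, the mean log2(FPKM + 1) of the large subunit minus that of the small was 0.036 ± 0.038 in U937 +FA DMSO and 0.105 ± 0.036 in OTX. In U937 -FA it was -0.0023 ± 0.052 and 0.158 ± 0.018. In both tables every OTX library lay above every DMSO library. In IMS-M2 +FA it was -0.039 ± 0.031 and 0.0091 ± 0.011, and every OTX library again lay above every DMSO library. In IMS-M2 -FA it was 0.028 ± 0.0091 and 0.011 ± 0.0064, and every OTX library lay below every DMSO library. The median change of the small subunit was nevertheless the lower there, -0.49 against -0.45. The gap between subunits also moved with the library score: within U937 -FA DMSO, column 2 stood at -0.062 and the other columns at 0.027 and 0.028. The part of the score in the subunit difference was not tested.

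Members of 1 family, and members whose symbol does not give their place, are described singly. Of the 3 relatives of bacterial S18, MRPS18B fell in all 4 comparisons, by 0.52 to 0.99 on the log2 scale. MRPS18A, in the large subunit, fell in 3 (-0.67, -0.39 and -0.73), and the U937 +FA change of -0.09 was not called (adjusted p = 0.66). The IMS-M2 -FA call was lost without any of DMSO replicates 1 and 3 or OTX replicates 1 and 2, where adjusted p ranged from 0.0712 to 0.134. MRPS18C, whose locus also holds FAM175A, fell in 3, but its U937 -FA call was lost without DMSO column 2 (0.071) or OTX column 0 (0.0749). MRPS30 fell in 3, from 34.1, 35.0 and 28.95 to 15.1, 14.8 and 13.8 FPKM in U937 +FA (adjusted p = 9.1e-05), and its change of -0.17 in IMS-M2 +FA was not called (0.099). MRPS36, outside the ribosome, was called in none, with changes of -0.07, 0.18, 0.50 and 0.12, but rose in U937 +FA (0.97, adjusted p = 0.00178) without the 7 libraries past the score threshold. DAP3, a small subunit protein with another symbol, showed 0.02 and 0.01 in IMS-M2 and fell in U937 (-0.31 and -0.35). Its U937 +FA call was lost without DMSO replicate 1 (0.0932) or 2 (0.0674) or OTX replicate 1 (0.0948) or 2 (0.0752) or without those 7 (0.0672), and its U937 -FA call without OTX column 0 (0.0502).

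In all, 9 members (11.8%) rose in at least 1 comparison, where 51% of genes tested in both lines did, and 4 (5.26%; MRPS33, MRPL48, MRPS14 and MRPS36) were called in none, where 9.54% of genes tested in both lines were. MRPS6, a small subunit protein at hg19 chromosome 21, 35445822 to 35515334, rose in 3 comparisons, and its locus is shared with SLC5A3. In IMS-M2 +FA it measured 58.2, 48.1 and 37.4 FPKM in DMSO and 102, 107 and 92.5 FPKM in OTX (1.07 ± 0.13, adjusted p = 1.14e-05). In U937 -FA it measured 90.4, 105 and 40.8 FPKM in DMSO and 129.8, 144 and 127 FPKM in OTX (0.86 ± 0.29, adjusted p = 0.0225). Without the high-score library in each of those tables, the changes were 0.91 and 0.446. The IMS-M2 -FA rise (0.38 ± 0.13) was not called without DMSO replicate 3 (0.0724) or OTX replicate 2 (0.0589), and the U937 -FA rise not without OTX column 1 (0.0685).

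MRPL33, a small protein of the large subunit at hg19 chromosome 2, 27994583 to 28002608, rose in 2. In IMS-M2 +FA it measured 45.9, 22.3 and 17.8 FPKM in DMSO and 54.9, 67.6 and 61.2 FPKM in OTX (1.18 ± 0.26, adjusted p = 0.00151). In U937 -FA it measured 62.6, 98.8 and 44.9 FPKM in DMSO and 145, 167 and 136 FPKM in OTX (1.17 ± 0.35, adjusted p = 0.0126). In U937 +FA, where it was not called (-0.37, adjusted p = 0.39), the DMSO libraries measured 54.8, 121 and 114 FPKM and the OTX libraries 101, 72.2 and 48.1 FPKM. In each of these 3 tables the lowest value of the DMSO group, and in U937 +FA also that of the OTX group, came from a library with a high score. With the score as a covariate the rises were 0.429 (adjusted p = 0.016) and 0.586 (0.0044), and without the high-score libraries 0.908 and 0.909.

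MRPL41 rose in IMS-M2 +FA (0.84 ± 0.18, adjusted p = 0.00137), from 53.1 ± 16.99 to 93.5 ± 12.02 FPKM. MRPL14, MRPL51 and MRPS10 rose in IMS-M2 +FA (0.40, 0.34 and 0.37) and fell in U937 +FA (-0.59, -0.38 and -0.40). MRPL53, a stalk protein, went the other way, falling in IMS-M2 +FA (-0.80, adjusted p = 0.00027) and rising in U937 +FA (0.50 ± 0.17, 0.0288). Those 4 members called in both directions are 5.26% of 76, where 9.78% of all genes tested in both lines were. The MRPS10 rise was lost without DMSO replicate 3 (0.0598), OTX replicate 2 (0.0631) or the 7 libraries past the score threshold (0.169), and the MRPL53 rise without any of 4 U937 +FA libraries, with adjusted p between 0.0611 and 0.118.

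**Figure D4:**
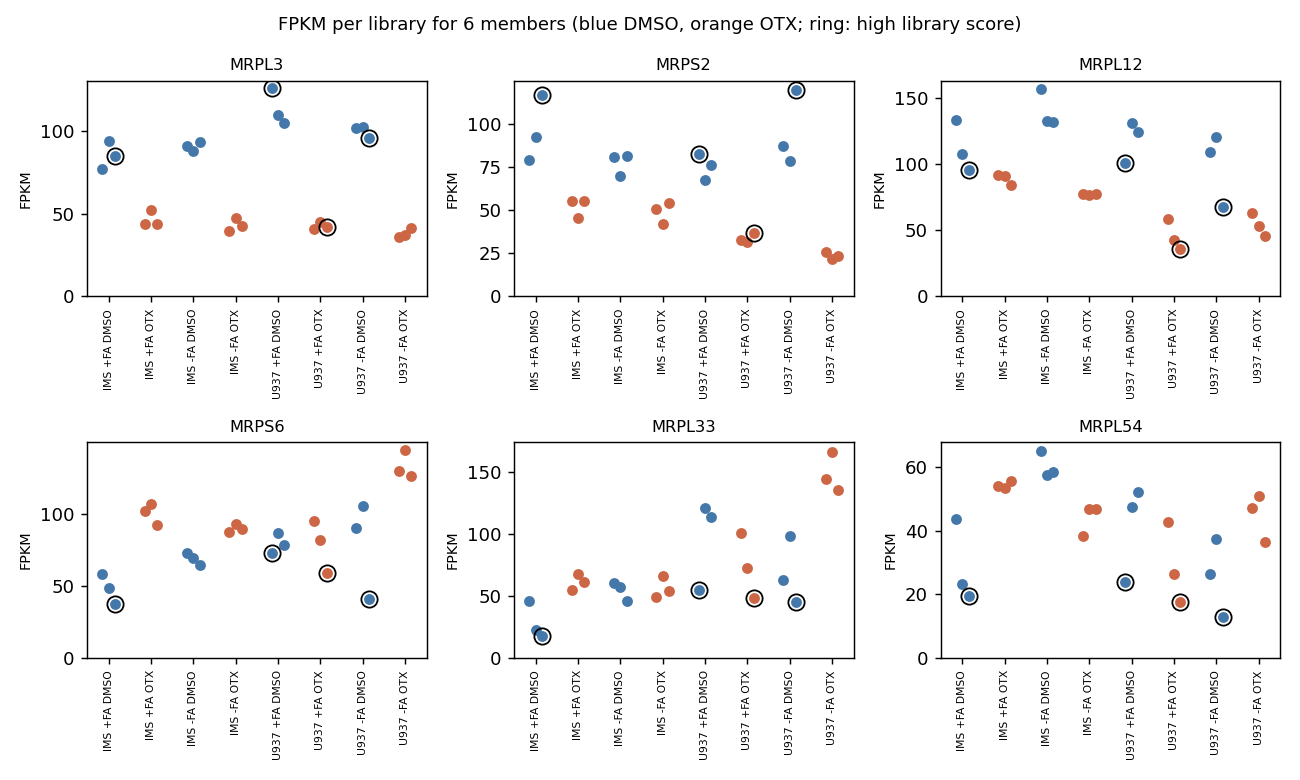
FPKM per library (vertical axes) of MRPL3, MRPS2, MRPL12, MRPS6, MRPL33 and MRPL54 in the 8 groups (horizontal axes; blue DMSO, orange OTX), a ring marking the 4 libraries with a high score. MRPL3 separates DMSO from OTX in every table, while ringed libraries hold the lowest DMSO values of MRPL33 and MRPL54.

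Promoters of the members were compared with those of other genes, because the members fell together. RefSeq windows of 250 bases before the start site (build GRCh38.p14) were found for 67 of 76 members. Each was searched on both strands for the E-box CACGTG, which MYC binds, for GCATGCG, part of the site bound by NRF1, and for CCGGAAG, the core bound by ETS factors such as GABPA. The ETS letters were in 22 of 67 members (32.8%), against 11.6% of all genes with a window and 18.1% of genes tested in both lines. They were in 24.1% of the 29 members lower in all 4 comparisons and in 39.5% of the other 38. The E-box was in 6 of 67 (8.96%), against 7.82% of all genes and 9.46% of tested genes, and in 4 of those 29 (13.8%). The NRF1 letters were in 7 of 67 (10.4%), against 4.54% of all genes and 6.27% of tested genes, and in 3 of those 29 (10.3%). The longer palindromic form of the NRF1 site, 10 letters that contain the shorter motif, was searched first and was in 1 of 67 (1.49%), against 1.46% and 2.23%. The shorter form was chosen after that count was seen, and the order of members and other genes depended on the form searched. A match is a description of letters, and no binding was measured here. The windows below show the ETS letters before a gene that fell in all comparisons (MRPL3, chr3:131502972-131503221, minus strand), the 3 copies before MRPS34 (chr16:1773135-1773384, minus strand), the E-box before MRPL37 (chr1:54199917-54200166, plus strand) and the ETS letters directly before MRPL33, which rose in 2 (chr2:27771469-27771718, plus strand). Capitals mark the matched letters, read 5′ to 3′ towards the start site.
MRPL3: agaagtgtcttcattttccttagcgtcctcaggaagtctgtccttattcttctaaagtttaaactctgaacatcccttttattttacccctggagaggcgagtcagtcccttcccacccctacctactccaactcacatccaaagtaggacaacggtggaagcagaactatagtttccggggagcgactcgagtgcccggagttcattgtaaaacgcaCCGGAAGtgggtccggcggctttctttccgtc
MRPS34: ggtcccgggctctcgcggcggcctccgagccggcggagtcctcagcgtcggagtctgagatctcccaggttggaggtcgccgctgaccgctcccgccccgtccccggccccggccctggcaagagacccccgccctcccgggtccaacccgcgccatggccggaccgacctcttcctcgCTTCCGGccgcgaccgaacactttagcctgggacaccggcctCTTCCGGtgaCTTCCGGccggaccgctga
MRPL37: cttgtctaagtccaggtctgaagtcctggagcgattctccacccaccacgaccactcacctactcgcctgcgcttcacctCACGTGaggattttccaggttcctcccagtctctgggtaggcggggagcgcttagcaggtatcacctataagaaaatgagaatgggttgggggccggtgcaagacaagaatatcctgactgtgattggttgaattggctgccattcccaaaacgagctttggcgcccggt
MRPL33: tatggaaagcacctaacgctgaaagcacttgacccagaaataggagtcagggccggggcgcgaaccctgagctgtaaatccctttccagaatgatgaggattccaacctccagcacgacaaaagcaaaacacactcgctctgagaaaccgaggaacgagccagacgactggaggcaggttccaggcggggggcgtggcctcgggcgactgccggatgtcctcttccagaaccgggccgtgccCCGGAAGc
The ETS letters thus stood before a member that fell everywhere and before a member that rose. MRPS34 fell in all 4 comparisons (-0.64, -0.57, -0.76 and -1.07), as did MRPL37 (-0.52, -0.70, -0.54 and -0.36).

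Whether the OTX change depended on folic acid was tested as the change without it minus the change with it. In IMS-M2, 7 of 76 members were lower and 1 higher in this difference, against 3.61% and 3.33% of all genes, with a median of -0.20. They were MRPL54 (-1.43 ± 0.30, adjusted p = 0.024), MRPS28 (-1.11 ± 0.29, 0.0399), MRPL34 (-1.08 ± 0.25, 0.0338), MRPS15 (-0.74 ± 0.16, 0.0283), MRPS6 (-0.69 ± 0.18, 0.041), MRPL51 (-0.57 ± 0.13, 0.0352), MRPS31 (-0.49 ± 0.13, 0.0488) and MRPL53 (0.70 ± 0.19, 0.0498). In U937, MRPL55 was lower (-0.90 ± 0.20, 0.0482) and MRPL1 higher (0.62 ± 0.13, 0.0454), against 1.27% and 0.741% of all genes, with a median of 0.14. The medians thus had opposite signs in the lines.

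These calls rested on the libraries and the model chosen. With equally numbered libraries of a table taken as blocks, IMS-M2 had 16 members lower and 3 higher. Of all genes, 8.78% and 8.33% were. The labels do not say whether equal numbers pair the libraries. MRPL54 in IMS-M2 -FA measured 65.2, 57.6 and 58.6 FPKM in DMSO and 38.5, 47.0 and 46.8 FPKM in OTX, the reverse of its order with folic acid, where DMSO replicates 2 and 3 were low. Across the 76 members, the loading of a gene on the library score ran with the folic acid difference, with Spearman's rho of 0.85 in IMS-M2 and -0.86 in U937. The points share libraries, so this is a description. With the score as a covariate no member was called in either line, and 0.303% and 0.393% of all genes were. This covariate was not centred by group. In IMS-M2 its means were 0.211 and -0.151 in +FA DMSO and OTX, and -0.139 and -0.030 in -FA DMSO and OTX. In U937 they were -0.098, 0.173, 0.211 and -0.176 in the same order. It could therefore also take up differences between groups, and that fit cannot separate them from variation between libraries. Without the high-score libraries, 1 member was lower and 0 higher in IMS-M2, where 0.624% of all genes were lower, and 9 were lower and 5 higher in U937, against 8.08% and 3.86% of all genes. Without all 7 libraries past the threshold, 11 were lower and 6 higher in IMS-M2, against 6.74% and 8.06%, and 12 lower and 10 higher in U937, against 7.68% and 3.98%. Leaving out 1 library at a time gave between 0 and 3 lower in IMS-M2 except without +FA DMSO replicate 1 (21 lower and 11 higher, against 12.8% and 17.7% of all genes) and -FA OTX replicate 2 (13 lower, against 6.05%). In U937 no member was called except without +FA DMSO replicate 1 (11 lower and 10 higher, against 13.8% and 5.72% of all genes) and -FA DMSO column 1 (13 lower and 17 higher, against 15.2% and 8.98%). The shares of members lower in those U937 fits are near the shares of all genes, whereas the shares of members higher are above them.

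**Figure D5:**
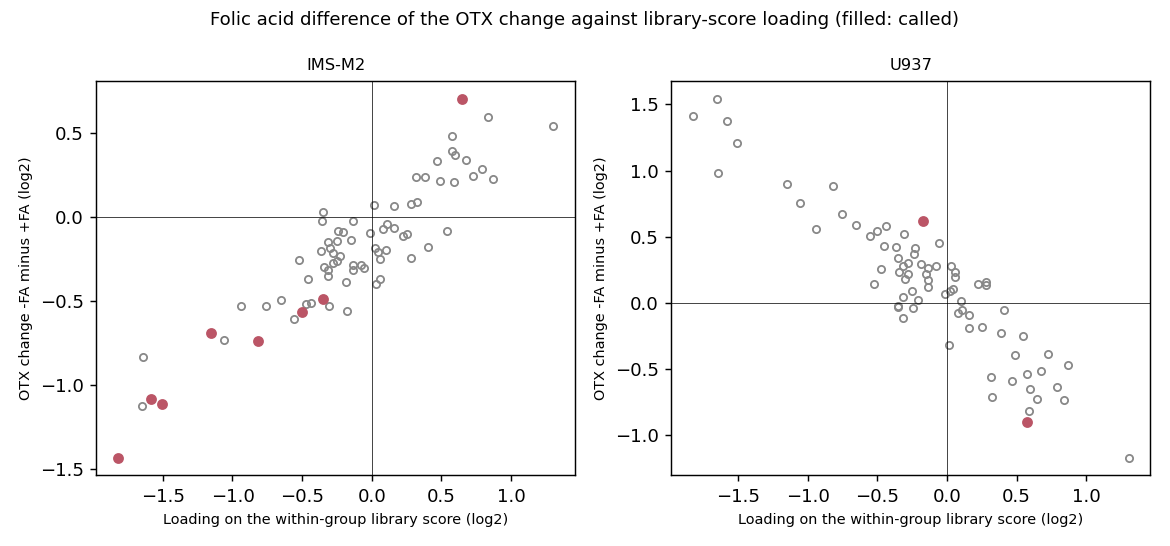
Folic acid difference of the OTX change (vertical axes, log2) against the loading of each of the 76 members on the library score (horizontal axes, log2) in IMS-M2 and U937; filled points are calls. The points rise in IMS-M2 (rho 0.85) and fall in U937 (rho -0.86).

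The change in U937 minus the change in IMS-M2 compared the lines. With folic acid, 42 of 76 members were lower and 7 higher, against 22.9% and 27.7% of all genes, with a median of -0.45 where all genes had 0.04. The lowest were MRPL33 (-1.55 ± 0.47, adjusted p = 0.0103), MRPL54 (-1.50 ± 0.49, 0.0166), MRPS28 (-1.42 ± 0.43, 0.00985) and MRPS17 (-1.17 ± 0.32, 0.00553). The highest were MRPL53 (1.30 ± 0.23, 0.000138), MRPL17 (0.90 ± 0.36, 0.0464), MRPL27 (0.79 ± 0.18, 0.00101) and MRPL10 (0.61 ± 0.20, 0.0163). Of these 42, 19 had fallen in both lines, 17 were not called in IMS-M2 and 6 had risen there, MRPL33 among them. Without the high-score libraries the counts were 42 and 7 again, against 21.2% and 26.1% of all genes. Without all 7 past the threshold, which left 1 library in some groups, the median was -0.31. With the score as a covariate the counts were 36 and 3, against 22.6% and 25.7%, and the median was -0.31. MRPL33 (adjusted p = 0.056), MRPL54 (0.054), MRPL17 (0.698) and MRPL10 (0.179) were then no longer called. MRPL54 was also not called without IMS-M2 +FA DMSO replicate 3 (0.053) or U937 +FA OTX replicate 3 (0.0564), and MRPL10 not without IMS-M2 +FA DMSO replicate 3 (0.0504) or U937 +FA DMSO replicate 2 (0.0579). MRPL17 was not called in 9 of the 12 cases with a library left out, with adjusted p between 0.0563 and 0.126. Without folic acid 14 were lower (18.4%) and 8 higher (10.5%), against 21.5% and 21.5% of all genes, with a median of -0.03. In the small subunit 8 of 26 were lower (30.8%) and 1 higher (3.85%), with a median of -0.21. In the large subunit 6 of 49 were lower (12.2%) and 7 higher (14.3%), with a median of 0.02. This difference between subunits was not tested. The lowest were MRPS2 (-1.30 ± 0.21, 5.47e-05), MRPL55 (-1.17 ± 0.25, 0.000896), MRPS24 (-1.01 ± 0.26, 0.00365) and MRPL2 (-0.95 ± 0.20, 0.000591). The highest were MRPL34 (1.54 ± 0.43, 0.00652), MRPL54 (1.35 ± 0.49, 0.033), MRPL18 (0.75 ± 0.22, 0.00887) and MRPS15 (0.75 ± 0.24, 0.0181). The MRPS15 call was lost without U937 -FA DMSO column 2 (0.057), and that of MRPL54 without any of 5 libraries, with adjusted p between 0.0599 and 0.108.

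Genes that build and serve the mitochondrial ribosome fell as well. Of 24 assembly factors, 15, 15, 15 and 16 fell and 4, 2, 2 and 1 rose over the 4 comparisons in the order above. Of all genes, 33.4%, 30%, 27% and 31.7% fell and 29.8%, 27.5%, 29.1% and 28% rose. Of 20 translation factors 13, 14, 14 and 12 fell (65%, 70%, 70% and 60%) and 2, 2, 1 and 2 rose. Of 16 genes of mitochondrial transcription and DNA maintenance 9, 13, 12 and 12 fell and 3, 2, 0 and 0 rose. MRM1, which methylates mitochondrial ribosomal RNA, changed by -0.97 ± 0.10, -1.19 ± 0.10 and -1.54 ± 0.16 in IMS-M2 +FA, IMS-M2 -FA and U937 +FA. PET112, which helps charge glutamine transfer RNA, changed by -1.07 ± 0.08 and -1.02 ± 0.08 in IMS-M2, where TUFM, the elongation factor that delivers transfer RNA, fell by 0.93 with folic acid and KIAA0391, a subunit of mitochondrial RNase P, by 0.87 without it. C10orf2, the mitochondrial DNA helicase, changed by -1.57 ± 0.09 and -2.06 ± 0.09 in U937, and GADD45GIP1, a large subunit protein, by -1.57 ± 0.31 with folic acid. C1QBP (-1.33 ± 0.07) and RPUSD4 (-1.25 ± 0.13) fell in U937 -FA. The largest rises, up to 3 in a comparison, were those of POLG, the mitochondrial DNA polymerase (0.55 and 0.61 in IMS-M2), the release factor MTRF1L (0.49 in IMS-M2 +FA, 0.36 and 0.58 in U937), TFAM (0.46 in IMS-M2 +FA), MPV17L2 (0.50 in IMS-M2 -FA), YBEY (0.41 in IMS-M2 -FA, 0.63 and 0.21 in U937), MTG1 (0.38 in U937 +FA) and MTFMT (0.37 in U937 -FA). Of 83 cytosolic ribosomal protein genes tested, 26, 8, 43 and 59 fell (31.3%, 9.64%, 51.8% and 71.1%) and 16, 3, 1 and 3 rose. In IMS-M2 the shares that fell were below those of all genes, 33.4% and 30%. Of the mitochondrial members, 71.1% fell in IMS-M2 -FA and 63.2% in U937 -FA. The difference between the 2 ribosomes was not tested. Of 7 genes for mitoribosomal proteins with other symbols, 1, 4, 5 and 4 fell (14.3%, 57.1%, 71.4% and 57.1%) and none rose. MYC, a transcription factor that drives ribosome genes, fell from 197 ± 11.2 to 142 ± 0.748 FPKM in IMS-M2 +FA (-0.47 ± 0.07) and from 196 ± 10.1 to 23.96 ± 1.27 FPKM in U937 +FA (-2.98 ± 0.09, adjusted p = 5.01e-09). Without folic acid it changed by -0.62 ± 0.07 in IMS-M2 and -3.08 ± 0.09 in U937.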

How the data were processed

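RNA was measured in 24 libraries as described above. The deposited values are FPKM; the unit, which the column headers do not name, was taken from the fractional values and the table layout. Per the submitters' processing notes, the tools were Cuffdiff 2.2.1, TopHat2 2.1.1 and bcl2fastq 2.17.1.14 on build hg19, with no role given. Per the labels' protocols, libraries came from the TruSeq Stranded mRNA kit; whether counting used strand is not given in the sources used here. U937 -FA columns, numbered 0 to 2, were assigned to their groups only. Group-means models were fitted with limma 3.58.1 (R 4.3.3, eBayes with trend) to log2(FPKM + 1), which understates changes of low genes, over 12 libraries of a line or all 24 between lines. Members, subunit roles and lists were chosen with earlier results of these data known. Members were named as the 6 highest and lowest called changes per OTX comparison, the 4 highest and lowest called differences, the 5 highest and lowest mean levels, those called in both directions, and a short list of family members, DAP3 and MYC; of the mitochondrial lists, the 3 largest called changes each way. Alternatives were another pseudocount (0.1), filters, rescaling, single tables, the replicate block, each library left out and, added after seeing the data, the library score, leaving out libraries by score (high, or past 0.25 in either sign), and the length trend.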

Additional observations from a re-analysis of the deposited data

Results flagged for a closer look

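For the genes below the difference between 2 OTX changes itself passed limma's interaction test at an adjusted p below 0.05. Without folic acid against with it, IMS-M2 gave differences on the log2 scale of -1.43 for MRPL54, -1.11 for MRPS28, -1.08 for MRPL34, -0.74 for MRPS15 and 0.70 for MRPL53, and U937 gave -0.90 for MRPL55 and 0.62 for MRPL1. For U937 against IMS-M2 with folic acid the differences were -1.55 for MRPL33, -1.50 for MRPL54, -1.42 for MRPS28, -1.17 for MRPS17, 1.30 for MRPL53, 0.90 for MRPL17, 0.79 for MRPL27 and 0.61 for MRPL10. Without folic acid they were -1.30 for MRPS2, -1.17 for MRPL55, -1.01 for MRPS24, -0.95 for MRPL2, 1.54 for MRPL34, 1.35 for MRPL54, 0.75 for MRPL18 and 0.75 for MRPS15. MRPL54 is in 3 of these lists, and its values are low in high-score libraries. With the library score, not centred by group, as a covariate, no folic acid difference was called in either line. Between lines with folic acid, MRPL33, MRPL54, MRPL17 and MRPL10 were then no longer called. Several calls were also lost when a library was left out, as given above. The part of the high-score libraries in the differences was not tested beyond the values given above.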

How the results depend on the processing

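In the 4 OTX comparisons the number of members that fell stayed within 1.5 times its reported value under every alternative run, and every median stayed below 0; counts of members that rose, subunit differences and folic acid differences moved. The cause of each change below was not tested unless the setting names it.

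Leaving out 1 library at a time, members higher ranged from 6 to 10 in IMS-M2 +FA, 0 to 1 in IMS-M2 -FA, 0 to 4 in U937 +FA and 1 to 5 in U937 -FA. Of all genes, 27% to 29.6%, 23.7% to 24.7%, 24.4% to 29.2% and 23% to 27.8% were higher. The U937 -FA median ranged from -0.50 to -0.37. The large minus small subunit difference of medians ranged from 0.039 to 0.23, -0.017 to 0.084, 0.16 to 0.32 and 0.14 to 0.23 in the same order. For the folic acid difference, members lower ranged from 0 to 21 and higher from 0 to 11 in IMS-M2. Of all genes, 0.169% to 12.8% were lower and 0.562% to 17.7% higher. In U937, members lower ranged from 0 to 13 and higher from 0 to 17, against 0.00893% to 15.2% and 0% to 8.98% of all genes. The U937 median ranged from 0.076 to 0.17, and the subunit difference from -0.15 to -0.049 in IMS-M2 and 0.15 to 0.24 in U937. For U937 minus IMS-M2, members higher ranged from 3 to 9 with folic acid and 4 to 16 without, against 23.6% to 30.8% and 18.8% to 23.3% of all genes. The median without folic acid ranged from -0.099 to 0.024, and the subunit difference from -0.031 to 0.035 with and 0.17 to 0.33 without.

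With the high-score libraries left out (added after seeing the data), members higher in U937 +FA were 4, the U937 -FA median was -0.50, and the subunit difference was 0.039 in IMS-M2 +FA and 0.21 in U937 +FA. The folic acid difference had 1 lower and 0 higher with a subunit difference of -0.049 in IMS-M2, and 9 lower, 5 higher and 0.17 in U937; the line difference without folic acid had a median of -0.099. With all 7 libraries past the score threshold in either sign left out (added), members higher were 3 in U937 +FA and 4 in U937 -FA, the medians -0.39 in IMS-M2 +FA, -0.66 in U937 +FA and -0.48 in U937 -FA, and the subunit differences 0.13, 0.19 and 0.19. The folic acid difference had 11 lower, 6 higher, a median of -0.071 and a subunit difference of -0.065 in IMS-M2, and 12, 10 and a subunit difference of 0.17 in U937. The line difference had 14 higher and a median of -0.31 with folic acid and a median of -0.12 without it. MRPS36 was then called higher in U937 +FA (0.97, adjusted p = 0.00178).

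With the library score as a covariate (added), members higher were 5 in IMS-M2 +FA and 2 in IMS-M2 -FA, against 27.5% and 28.9% of all genes. The U937 -FA median was -0.50 and the subunit differences were 0.28 and 0.22 in U937 +FA and -FA. The folic acid difference had 0 lower and 0 higher in both lines, a U937 median of 0.058 and subunit differences of 0.0073 and -0.054; the line difference with folic acid had 3 higher and a median of -0.31, and without it a subunit difference of 0.14. With the length trend removed (added), the medians were -0.24, -0.33, -0.50 and -0.32, and the subunit differences 0.15, 0.097, 0.31 and 0.18. Members higher in U937 +FA were then 2, against 27.7% of all genes. Members lower in the IMS-M2 folic acid difference were 4, against 2.66%. The subunit difference between lines without folic acid was 0.27.

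With no filter, the folic acid difference had 2 lower and 0 higher in IMS-M2, against 0.993% and 1.52% of all genes. In U937 it had 0 and 0, against 0.536% and 0.202%. Between lines without folic acid, 5 members were then higher, against 16.7%. A pseudocount of 0.1 FPKM left 0 higher in the IMS-M2 folic acid difference, against 2.98% of all genes. In U937 it left 0 lower and 0 higher, against 0.241% and 0.0357%. Fitted on the 6 libraries of a table, 2 members were higher in IMS-M2 -FA and 1 in U937 -FA, against 30.6% and 25.7% of all genes. Rescaling gave 2 higher in U937 +FA, against 29.2% of all genes. Subunits by symbol gave differences of 0.22 in U937 +FA and 0.28 between lines without folic acid.

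With the replicate block, 2 members were higher in IMS-M2 -FA, against 33% of all genes. The IMS-M2 folic acid difference had 16 lower and 3 higher, against 8.78% and 8.33% of all genes. The labels do not say whether equal numbers pair the libraries, and the main fits did not use the numbers. In IMS-M2 +FA same-numbered deviations correlated at 0.052, 0.28 and 0.073, and differently numbered ones between -0.16 and 0.069. In IMS-M2 -FA they correlated at 0.076, 0.21 and 0.19, all above the differently numbered ones, between -0.18 and 0.017. In U937 +FA the values were -0.34, 0.13 and -0.24, against between -0.32 and 0.50. U937 -FA columns carry no label number.

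Among genes that were not called, DAP3 changed sign (range without 1 library -0.099 to 0.10 in IMS-M2 +FA and -0.023 to 0.056 in IMS-M2 -FA) in IMS-M2 +FA without DMSO replicate 1 (-0.099) or OTX replicate 2 (-0.025) or all 7 libraries past the threshold (-0.061), and in IMS-M2 -FA when rescaled (-0.0010), without DMSO replicates 2 (-0.0071) or 3 (-0.0088) or OTX replicate 2 (-0.023), or with the score as a covariate (-0.045). MRPS36 in IMS-M2 +FA (range -0.28 to 0.041) turned positive without DMSO replicate 2 (0.041) or 3, which is also the high-score library (0.039), with the covariate (0.27) and with the length trend removed (0.021), and MRPS18A in U937 +FA (range -0.19 to 0.010) without DMSO replicate 1 (0.010) and with the length trend removed (0.058). FPKM give no depth, so counting error could not be set beside these values.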
